A study of Homo sapiens with 6 samples.

Results

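The 10 genes described here encode the transcriptional regulators of the Hippo pathway or are among its target genes. They are the coactivators YAP1 and WWTR1 (which encodes TAZ), their DNA-binding partners TEAD1, TEAD2, TEAD3 and TEAD4, and the target genes CCN1 (formerly CYR61), CCN2 (formerly CTGF), AMOTL2 and LATS2. They were chosen by name, with earlier results of these data known, and all 10 were found among the 40488 Ensembl genes of the deposited table. SCC90 is an established human cell line that was derived from a base-of-tongue carcinoma carrying HPV16. Its poly(A) RNA was sequenced in 2 groups of 3 libraries, cells transfected with a scrambled siRNA (siCTRL) and cells transfected with 10 nM of a siRNA against ΔNp63 (siDNp63), both harvested after 72 h. The concentration is that of the sample labels, and the study's methods give another. By the labels, the groups share the line and differ in the siRNA, and a single siRNA reagent was used, so that effects of this siRNA on other transcripts cannot be told apart from those of ΔNp63 loss.

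In the Hippo pathway, a kinase cascade of MST kinases (STK3 and STK4) and LATS kinases (LATS1 and LATS2) phosphorylates YAP and TAZ, which then stay in the cytoplasm or are degraded. When the cascade is inactive, YAP and TAZ enter the nucleus and bind TEAD proteins on DNA, where they raise the transcription of genes of growth, adhesion and matrix. Several of these targets, among them LATS2 and AMOTL2, encode inhibitors of YAP and so form a negative feedback. The activity of YAP and TAZ is set mainly by their phosphorylation and location, which RNA-seq does not measure. In stratified epithelia YAP and ΔNp63 are both found in the basal layer, where cells divide.

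The libraries held 35716277 to 52598831 expected counts, and every member had between 421 and 8404 expected counts in each library. TP63, the gene targeted by the siRNA, fell from 42319, 44204 and 43700.1 normalized counts in siCTRL replicates 1, 2 and 3 to 15520.1, 14474 and 15414 in siDNp63 replicates 1, 2 and 3 (log2 fold change −1.52 with a standard error, SE, of 0.04; edgeR adjusted p = 7.59e-07). This value sums the ΔN and TA transcripts. Normalized counts are expected counts scaled between libraries with edgeR's TMM factors, and positive log2 fold changes stand for a higher level in siDNp63. Genes were called higher or lower at an adjusted p under 0.05 from edgeR's quasi-likelihood test, adjusted over the 17257 genes tested by the Benjamini-Hochberg method. On the second principal component siDNp63 replicate 1 scored −39.1, against 25.6 and 24.8 for the other siDNp63 libraries. Since the labels do not state that replicates were separate cultures, p-values here refer to the spread of these libraries alone, which may be technical.

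The epithelial markers KRT6A (3071 TPM in siCTRL and 3694 in siDNp63, means of 3), CDH1 (478 and 711) and EPCAM (420 and 599) were high in both groups, and 5 of the 8 epithelial markers rose, while the basal keratins KRT5 (7.08 and 5.43 TPM) and KRT14 (0.524 and 1.49 TPM) had much lower levels. TPM values, deposited by the authors, are abundances corrected for transcript length and library size. The 9 fibroblast markers together summed to 8.86 to 10.9 TPM in siCTRL and 5.99 to 9.18 TPM in siDNp63, with PDGFRB and FAP at 0 in all 6 libraries, and of 4 tested 0 rose and 1 fell. The 8 leukocyte markers summed to 6.97 to 8.19 TPM and 4.23 to 4.92 TPM, and of 4 tested 0 rose and 1 fell. The 7 endothelial markers summed to 3.17 to 4.25 TPM and 12.1 to 14.5 TPM, and of 4 tested 3 rose (KDR, PECAM1 and VWF), while CDH5 and CLDN5 stayed under 0.1 TPM on average. Their part in the results on the members was not tested. In bulk RNA of a single line, a change in the share of cells that express a marker and a change in its RNA per cell cannot be told apart.

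In siDNp63, 3 of the 4 target genes were higher than in siCTRL, and the coactivator and TEAD genes had smaller log2 fold changes. AMOTL2, LATS2 and CCN2 rose, and TEAD2 rose by a small amount, whereas WWTR1 fell. YAP1, TEAD1, TEAD3, TEAD4 and CCN1 did not pass the test. The 5 called members, 4 higher and 1 lower, stand against 33.6% of all genes tested that were called in either direction, 18.4% higher and 15.2% lower. The members called had a median absolute log2 fold change of 0.34, against 0.40 over all genes called. None of the 10 had an absolute log2 fold change over 1, which 4.06% of all genes tested combined with an adjusted p under 0.05. The median log2 fold change of the 10 members was 0.10, against −0.02 over all genes tested.

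**Figure D1:**
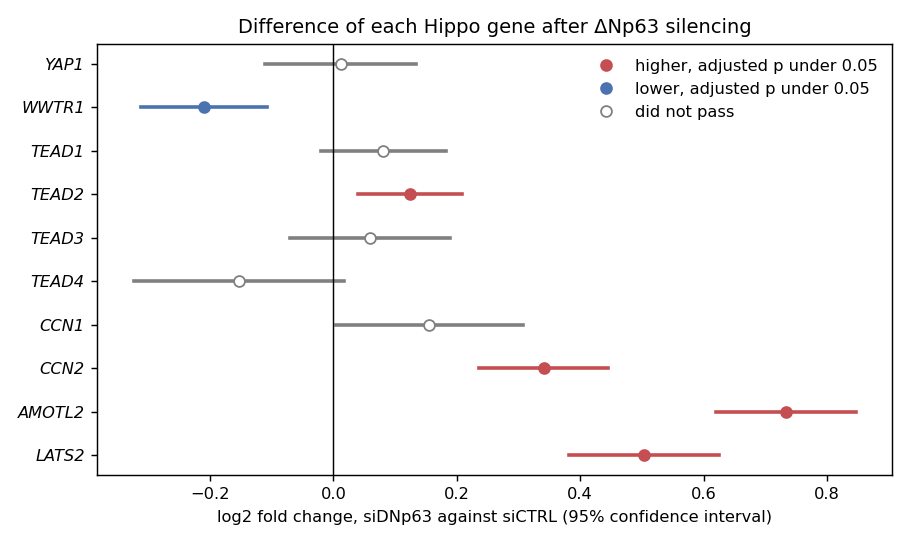
Log2 fold change of each of the 10 genes in siDNp63 against siCTRL (points) with its 95% confidence interval from edgeR (lines), filled where the adjusted p is under 0.05. AMOTL2, LATS2 and CCN2 lie farthest to the right, at 0.73, 0.50 and 0.34, WWTR1 lies to the left of 0 at −0.21, and the interval of YAP1 spans 0.

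Of the 2 coactivators, YAP1 (ENSG00000137693; chromosome 11, 102110447 to 102233424 of GRCh38, plus strand) had 7291, 7066 and 7244 normalized counts in siCTRL replicates 1, 2 and 3 and 7827, 7069 and 6887 in siDNp63. The siDNp63 libraries lay on both sides of the siCTRL values, with replicate 1 the highest and replicate 3 the lowest of all 6. Its log2 fold change was 0.01 with a 95% interval of −0.11 to 0.13 (edgeR adjusted p = 0.890), an estimate that turned to −0.07 when libraries were scaled by size alone. YAP1 and WWTR1 are paralogs whose proteins share the TEAD-binding region and the WW domains, and both act through the same TEAD factors. Of the 31-base words of the annotated YAP1 transcripts, the unit by which kallisto matches reads, 11.1% also occur in other genes.

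WWTR1 (ENSG00000018408; chromosome 3, 149517235 to 149736714, minus strand) had 3553, 3386 and 3533 normalized counts in siCTRL and 3147, 3023 and 2889 in siDNp63. Every siDNp63 library lay below every siCTRL library. The ratio of the means was 0.865, a log2 fold change of −0.21 (SE 0.04, 95% interval −0.31 to −0.11, edgeR adjusted p = 0.00810). The call ended when the fit allowed for the mean transcript length of each gene in each library (log2 fold change −0.14, edgeR adjusted p = 0.0905). The length implied by the ratio of count to TPM was 0.944 times that of siCTRL, relative to the median gene, with overlapping groups. Of the 31-base words of WWTR1, 11.5% also occur in other genes, most of them in the antisense gene WWTR1-AS1. No gene of that name was found in the deposited table. Strand was not used in the matching as far as the methods state (default options).

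Per length, YAP1 was the more abundant coactivator RNA, at 70.4 to 71.9 TPM in siCTRL and 66.8 to 71.1 TPM in siDNp63, against 51.1 to 52.3 TPM and 43.9 to 46.1 TPM for WWTR1. WWTR1 made up 42.1% ± 0.546 of the summed TPM of the pair in siCTRL and 39.4% ± 1.21 in siDNp63 (SD, n = 3 each; exact permutation test, two-sided, p = 0.1, the smallest that 3 against 3 libraries allow). The summed TPM of YAP1 and WWTR1 was 123, 122.5 and 122.7 in siCTRL replicates 1, 2 and 3 and 116, 113 and 113 in siDNp63. The 2 groups did not overlap in this sum of TPM. Unlike normalized counts, TPM has no TMM scaling, whose factors were 1.02 to 1.04 in siCTRL and 0.960 to 0.977 in siDNp63. In normalized counts the groups of YAP1 overlapped, with siDNp63 replicate 1 the highest (7827). Of all genes tested, 49.4% had groups that did not overlap in normalized count.

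The 4 TEAD genes encode transcription factors that share the TEA DNA-binding domain and a YAP-binding domain, and bind the same short DNA element. TEAD2 (ENSG00000074219; chromosome 19, 49340595 to 49362457, minus strand) had 4560.1, 4542 and 4503 normalized counts in siCTRL and 4889, 5086 and 4850.4 in siDNp63. The groups did not overlap, and the ratio of the means was 1.09, a log2 fold change of 0.12 (SE 0.04, edgeR adjusted p = 0.0309). This call ended under 10 of 15 other settings, and with scaling by library size alone the log2 fold change was 0.038. Some annotated TEAD2 transcripts share 265 words of 31 bases with the neighbouring gene CD37, which had a mean of 136 normalized counts in siCTRL and 54.2 in siDNp63.

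TEAD4 (ENSG00000197905; chromosome 12, 2959330 to 3040676, plus strand) was the least abundant of the 4, with 576, 558 and 559 normalized counts in siCTRL and 539, 504 and 481 in siDNp63. Its groups did not overlap either, but its log2 fold change of −0.15 (95% interval −0.32 to 0.02) had an edgeR adjusted p = 0.149. With scaling by library size alone it was −0.24 and passed (edgeR adjusted p = 0.0316). In all, 6 of the 10 members had groups that did not overlap, where 49.4% of all genes tested did.

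TEAD1 (ENSG00000187079; chromosome 11, 12674421 to 12944737, plus strand) ranged from 5206 to 5509.8 normalized counts in siCTRL and from 5409 to 5819 in siDNp63, a log2 fold change of 0.08 (95% interval −0.02 to 0.18). TEAD3 (ENSG00000007866; chromosome 6, 35473597 to 35497079, minus strand) ranged from 1578 to 1700.35 and from 1588 to 1749.7, a log2 fold change of 0.06 (95% interval −0.07 to 0.19). Neither passed the test (edgeR adjusted p = 0.200 and 0.465), their groups overlapped, and with scaling by library size alone both estimates were just under 0 (−0.0051 and −0.03).

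Counts and lengths gave different orders of the TEAD genes. TEAD1 had the most reads, but per length TEAD2 was the most abundant, at 107 to 119 TPM in siCTRL and 119.7 to 124 TPM in siDNp63, and made up 65.2% ± 1.42 and 67.6% ± 1.25 of the summed TPM of TEAD1 to TEAD4 (SD, n = 3 each). TEAD1 made up 13.2% and 12.9%, TEAD3 12.7% and 12.2%, and TEAD4 8.85% ± 0.494 and 7.32% ± 0.532. For TEAD2 and TEAD4 the shares of the groups did not overlap (exact permutation test, two-sided, p = 0.1 for each, 0.167 when adjusted over the 5 shares compared). As shares of normalized counts the TEAD2 difference was 1.05 percentage points in place of 2.39 (exact permutation test, p = 0.2). The summed TPM of the 4 genes was 168, 179 and 170.07 in siCTRL replicates 1, 2 and 3 and 179.42, 179.6 and 179.45 in siDNp63. The siCTRL replicate 2 sum lay just below those of siDNp63.

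**Figure D2:**
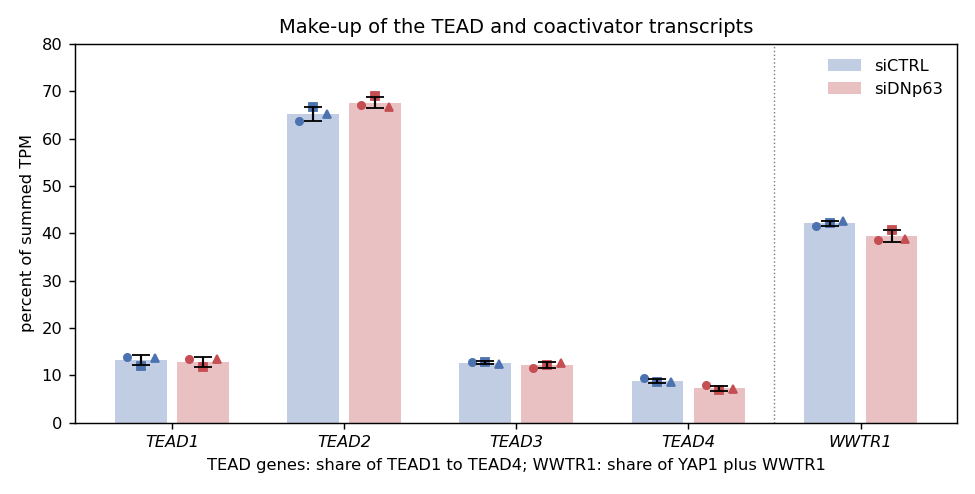
Percent of the summed TPM of TEAD1 to TEAD4 taken by each TEAD gene and of YAP1 plus WWTR1 taken by WWTR1, in siCTRL (blue) and siDNp63 (red), with the 3 libraries as points (circle, square and triangle for replicates 1, 2 and 3), the mean as a bar and the SD as an error line. TEAD2 holds 65.2% of the TEAD sum in siCTRL and 67.6% in siDNp63.

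Among the target genes, AMOTL2 had the largest log2 fold change of the 10 members. AMOTL2 (ENSG00000114019; chromosome 3, 134355347 to 134375479, minus strand) encodes a junction protein of the angiomotin family that binds YAP and keeps it out of the nucleus. It had 2067.5, 1858 and 2014 normalized counts in siCTRL replicates 1, 2 and 3 and 3258, 3369 and 3250.1 in siDNp63. All 3 siDNp63 libraries lay far above the highest siCTRL library. The means rose from 1980.05 ± 109 to 3293 ± 66.5 (SD, n = 3 each), 1.66 times the siCTRL level, a log2 fold change of 0.73 (SE 0.05, 95% interval 0.62 to 0.85, edgeR adjusted p = 2.74e-05). Its log2 fold change was higher than that of 94.98% of all genes tested.

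LATS2 (ENSG00000150457; chromosome 13, 20973036 to 21061586, minus strand) encodes a kinase that phosphorylates YAP and TAZ. It had 719, 714 and 733 normalized counts in siCTRL and 1024 in each of the 3 siDNp63 libraries, whose SD of 0.252 was smaller than counting error alone would give. The ratio of the means was 1.42, a log2 fold change of 0.50 (SE 0.05, 95% interval 0.38 to 0.63, edgeR adjusted p = 2.57e-04). Its paralog LATS1, which the members do not include, had a log2 fold change of −0.0043 (95% interval −0.14 to 0.13, edgeR adjusted p = 0.963).

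CCN2 (ENSG00000118523; chromosome 6, 131948176 to 131951372, minus strand) and CCN1 (ENSG00000142871; chromosome 1, 85580761 to 85584589, plus strand) encode secreted matricellular proteins that bind integrins and are the most used readouts of YAP and TAZ activity. CCN2 had 2746, 2629 and 2767 normalized counts in siCTRL and 3563, 3477 and 3274 in siDNp63. The groups were apart, at 1.27 times the siCTRL mean, a log2 fold change of 0.34 (SE 0.05, 95% interval 0.24 to 0.45, edgeR adjusted p = 8.45e-04). Of the CCN2 words of 31 bases, 8.67% also occur in other genes, mostly LINC01013, a name not found in the deposited table. CCN1 had 1757, 1572 and 1685 normalized counts in siCTRL and 1932, 1937 and 1718 in siDNp63, so that siDNp63 replicate 3 fell within the siCTRL range. Its log2 fold change of 0.16 (95% interval 0.0034 to 0.31) had an unadjusted p = 0.0461 and an edgeR adjusted p = 0.108. Without siDNp63 replicate 3 the log2 fold change of CCN1 was 0.21 and passed the test (edgeR adjusted p = 0.0480), while with scaling by library size alone it was 0.07 (edgeR adjusted p = 0.443) and with limma on log2(TPM + 1) 0.08 (adjusted p = 0.424). The 95% intervals of AMOTL2 and LATS2 lie above that of CCN1, and the difference between these genes was not tested.

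**Figure D3:**
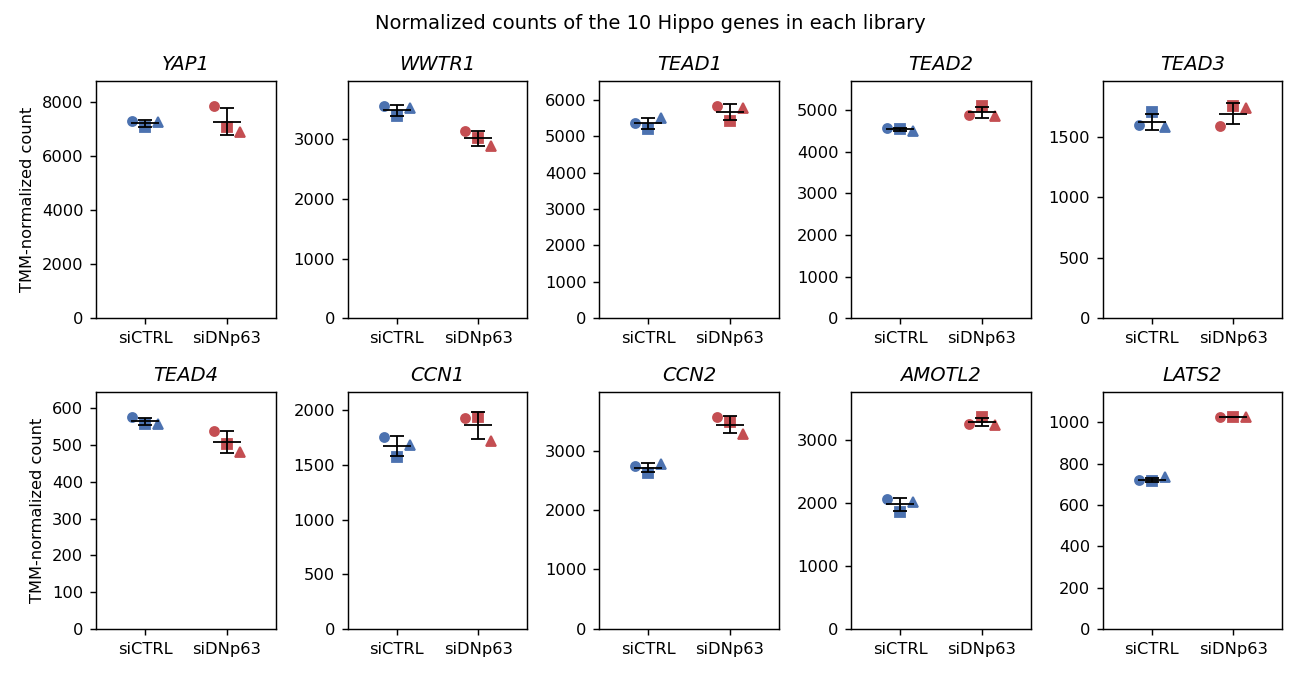
TMM-normalized counts of the 10 genes in each library (circle, square and triangle for replicates 1, 2 and 3) with the mean and SD in black, siCTRL in blue and siDNp63 in red, each panel on its own axis from 0. The groups are apart with siDNp63 higher for AMOTL2, LATS2, CCN2 and TEAD2 and lower for WWTR1 and TEAD4, while the values of the other 4 genes overlap.

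The promoter of CCN2 is shown because it carries the element that TEAD proteins bind in more copies than any other member promoter examined. The 250 bases before the RefSeq start of CCN2, at chr6:131951373-131951622 of GRCh38.p14, read 5′ to 3′ on the minus strand, are given with each GGAATG in capitals.
CCN2 promoter: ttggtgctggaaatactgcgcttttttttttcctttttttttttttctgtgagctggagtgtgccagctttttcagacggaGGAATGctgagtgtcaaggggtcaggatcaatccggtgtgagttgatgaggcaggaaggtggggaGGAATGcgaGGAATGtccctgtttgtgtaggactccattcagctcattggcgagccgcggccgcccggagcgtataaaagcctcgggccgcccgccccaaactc
The motif GGAATG was searched on both strands (as GGAATG or CATTCC) and stood at −169, −104 and −95, counted back from the RefSeq start. Of all 35116 promoters in the RefSeq table, 11.9% held at least 1 copy in the same 250 bases and 0.0797% held at least 3. Of 10 promoters listed for 7 members (YAP1, WWTR1, TEAD2, TEAD3, CCN2, AMOTL2 and LATS2), 3 held the motif, namely that of CCN2, 1 of 2 for AMOTL2 and that of YAP1. CCN1, TEAD1 and TEAD4 were not examined.

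The single match in AMOTL2 lies within an annotated exon and stood at −69 on the other strand, so that it reads as CATTCC, within the 26 bases at chr3:134374501-134374526 of GRCh38.p14, minus strand, shown for comparison with CCN2 and with the motif in capitals.
AMOTL2 promoter, match: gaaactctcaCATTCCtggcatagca
The LATS2 promoter held no GGAATG in its 250 bases, and the YAP1 promoter, whose 250 bases all lie in annotated exons, held 1 copy at −162. The AP-1 element TGANTCA, which is often found next to TEAD elements in enhancers, was in none of the 10 member promoters and in 6.57% of all promoters. These matches describe letters in a short window and do not show binding, and most TEAD sites are known to lie in enhancers outside such windows.

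Per length, the order of the members changed in a pair of places between the groups. In siCTRL the order of mean TPM was TEAD2, YAP1, WWTR1, CCN2, CCN1, TEAD1, TEAD3, AMOTL2, TEAD4 and LATS2. In siDNp63 CCN2 (51.5 to 55.0 TPM) stood above WWTR1 (43.9 to 46.1 TPM), where in siCTRL it had stood below it (42.8 to 45.0 TPM against 51.1 to 52.3 TPM). AMOTL2 stood below TEAD3 in siCTRL (18.6 to 20.3 TPM) and above TEAD1 in siDNp63 (30.8 to 31.6 TPM). Of neighbours in these orders, TEAD1 and TEAD3 were the ones whose libraries overlapped, in both groups. LATS2 was the least abundant member throughout, at 4.65 to 4.74 TPM and 6.23 to 6.44 TPM.

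**Figure D4:**
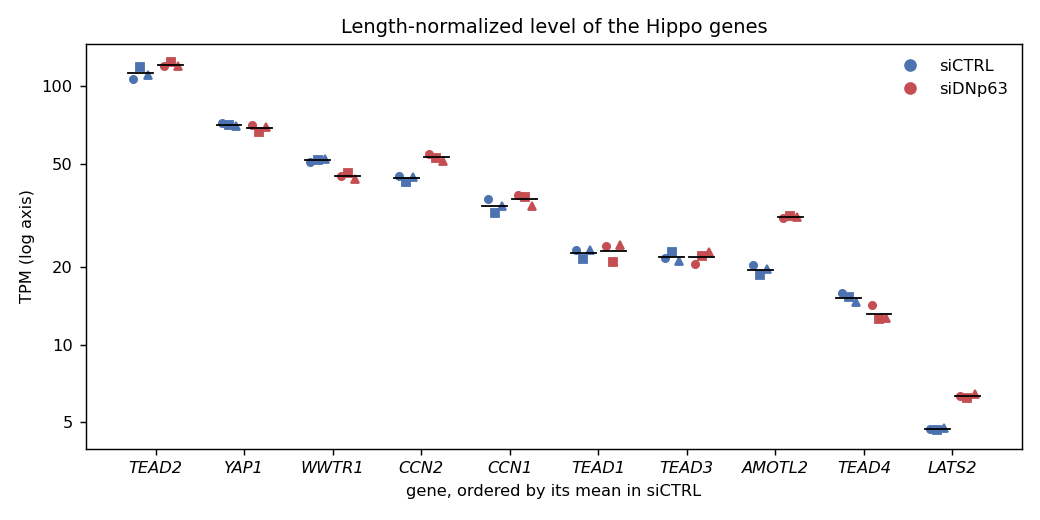
TPM of the 10 genes on a log axis, ordered by the siCTRL mean, with 3 siCTRL libraries (blue) and 3 siDNp63 libraries (red) per gene (circle, square and triangle for replicates 1, 2 and 3) and the group mean as a line. TEAD2 is the highest at 112 and 121 TPM on average and LATS2 the lowest at 4.71 and 6.33 TPM.

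Upstream of the coactivators, genes of proteins that hold YAP at junctions or act on LATS kinases changed in both directions, and AMOT and WWC1 had larger log2 fold changes than any of the 10 members. Of 23 genes of upstream and junction proteins tested, 9 rose and 3 fell (7 and 5 with scaling by library size alone), 52.2% called against the 33.6% of all genes tested, with a median log2 fold change of 0.03. AMOT, the founding angiomotin, rose from 2695, 2659 and 2749 normalized counts in siCTRL to 6073, 5588 and 5832 in siDNp63, a log2 fold change of 1.11 (SE 0.04, edgeR adjusted p = 2.73e-06). The third member of the family, AMOTL1, fell from 5725, 5494 and 5538 to 4326, 4331 and 4520.4 (log2 fold change −0.35, edgeR adjusted p = 3.41e-04), so that AMOT and AMOTL2 rose and AMOTL1 fell. All 3 genes of the KIBRA family, scaffolds that activate LATS kinases, rose, with log2 fold changes of 0.89 for WWC1, 0.59 for WWC2 and 0.24 for WWC3.

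WWC1, which encodes KIBRA itself, went from 1196, 1152 and 1163 normalized counts in siCTRL to 2113, 2241 and 2164 in siDNp63 (edgeR adjusted p = 8.30e-06). AJUBA, a LIM protein that restrains LATS kinases, fell from 8377, 8306 and 8236 normalized counts to 5845, 5547 and 5359 (log2 fold change −0.57, edgeR adjusted p = 4.29e-05). The libraries of the 2 groups were apart for both genes. CTNNA1, which encodes α-catenin, a junction protein known to hold YAP at the membrane, rose with a log2 fold change of 0.34. FAT4, an atypical cadherin, fell (−0.80, SE 0.21, edgeR adjusted p = 0.0191) from a mean of 156 normalized counts to 90.1. Its level was low, at a mean of 0.551 TPM in siCTRL and 0.307 TPM in siDNp63. NF2, which encodes merlin, had a log2 fold change of −0.06 (edgeR adjusted p = 0.508).

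The kinase genes had small log2 fold changes. Of 16 core kinases and adaptors tested, 4 rose and 2 fell (2 and 5 with scaling by library size alone; median log2 fold change −0.01), 37.5% called against 33.6% of all genes. STK4, which encodes MST1, rose from 2455.3, 2455.4 and 2401 normalized counts to 2981, 2864 and 2913 (log2 fold change 0.26, edgeR adjusted p = 0.00121). STK3 (0.18), MAP4K3 (0.35) and TAOK3 (0.19), kinases that act on the cassette or belong to it, rose too. The kinase gene MINK1 (−0.23) and the adaptor gene SAV1 (−0.19) fell, SAV1 close to the threshold (edgeR adjusted p = 0.0471). With mean transcript lengths in the fit 2 of the 16 were called (1 higher and 1 lower), where 24.0% of all genes were. With limma on log2(TPM + 1) 1 was called (0 higher and 1 lower), where 23.3% of all genes were.

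Of 10 cofactor genes tested out of 12 listed, 6 rose and 0 fell (median log2 fold change 0.19), 60.0% called against 33.6% of all genes tested. With scaling by library size alone 3 rose and 0 fell. VGLL4, which encodes a protein that competes with YAP for TEAD, rose from 3713, 3703 and 3788.5 normalized counts to 6190.4, 6641 and 6532 (log2 fold change 0.79, SE 0.04, edgeR adjusted p = 8.49e-06). YWHAZ, YWHAQ, YWHAB and YWHAE encode 14-3-3 proteins, which hold phosphorylated YAP in the cytoplasm. They rose with log2 fold changes of 0.26, 0.19, 0.15 and 0.19, YWHAE close to the threshold (edgeR adjusted p = 0.0466). SFN, another 14-3-3 gene of the list, did not pass (0.19, edgeR adjusted p = 0.431), and its groups overlapped. It had 11346, 11662 and 11279 normalized counts in siCTRL and 9152, 14649 and 15303 in siDNp63. The siDNp63 replicate 1 value lay below every siCTRL library, and those of replicates 2 and 3 lay above. The casein kinase gene CSNK1D rose with a log2 fold change of 0.22. VGLL3 had a log2 fold change of −0.17 (edgeR adjusted p = 0.589), and VGLL1 and VGLL2 had at most 1 count in any library.

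Of 18 other genes that are widely used as YAP and TAZ targets, 17 were tested, 4 rose, 2 fell (4 and 3 with scaling by library size alone) and 11 did not pass (median log2 fold change 0.11), 35.3% called against 33.6% of all genes tested. MYOF, which encodes the membrane repair protein myoferlin, rose from 4953, 4891 and 4976 normalized counts to 9126, 8628 and 8793 (log2 fold change 0.84, SE 0.04, edgeR adjusted p = 4.64e-06). F3, which encodes tissue factor, rose from 710, 584 and 652 to 1113, 984 and 1023 (0.68), and IGFBP3, an inhibitor of insulin-like growth factors, from a mean of 4277 to one of 5612 (0.39). ASAP1, a regulator of Arf GTPases, rose by less (0.23). NUAK2, a kinase gene, fell from 584, 592 and 641 to 424, 455 and 443 (−0.46), and NT5E, which encodes the surface enzyme CD73, fell from a mean of 211 to one of 161 (−0.39). ANKRD1, among the most induced YAP targets in other cells, had 1.74, 1.04 and 2.25 normalized counts in siCTRL and 16.6, 2.57 and 4.77 in siDNp63, too few to pass the filter on low counts.

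**Figure D5:**
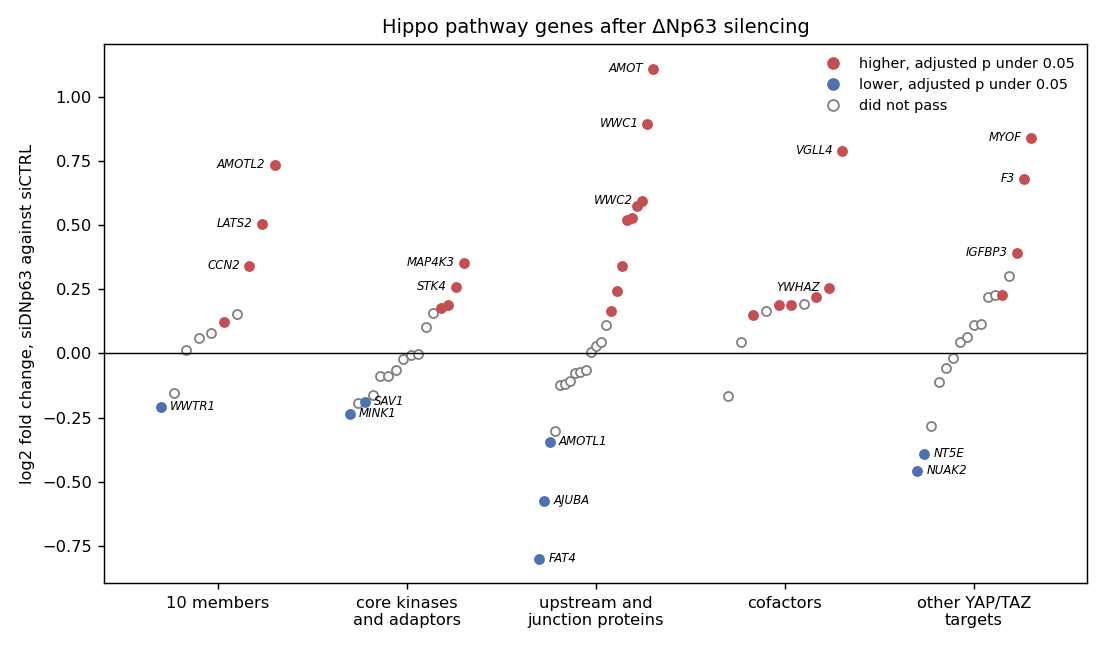
Log2 fold change in siDNp63 against siCTRL (vertical axis) of the 10 members and of the tested genes of 4 Hippo lists, each point a gene and filled where the edgeR adjusted p is under 0.05 (red higher, blue lower). AMOT at 1.11, WWC1 at 0.89, MYOF at 0.84 and VGLL4 at 0.79 lie above every member, and FAT4 at −0.80 and AJUBA at −0.57 lie below every member.

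Across the 6 libraries, CCN2 was compared with 13881 other genes with a mean of at least 50 normalized counts. The genes whose log2 level was most like that of CCN2 were NFKBIA, MACO1 and JTB (Pearson r of 0.999, 0.999 and 0.998). Like CCN2, all of them were called higher in siDNp63, with log2 fold changes of 0.36, 0.33 and 0.43. Among the members, AMOTL2 (0.979) and LATS2 (0.973) were the most like CCN2 and WWTR1 (−0.812) the least. For YAP1 the most alike were CCDC90B (0.989), RHBDL2 (0.984) and LARP1B (0.984), none of which passed the test between the groups, and its correlation with CCN2 was 0.281. These are descriptions over 6 libraries that share 2 conditions and carry no p. The genes most like CCN2 or YAP1 were picked by this correlation, so whether they were called largely follows from the choice. Without siDNp63 replicate 1, the library that stood apart, the same numbers of members were called (4 higher and 1 lower), with log2 fold changes of 0.74 for AMOTL2, 0.51 for LATS2, 0.32 for CCN2 and −0.24 for WWTR1. In that library YAP1 was 0.17 higher on the log2 scale than the mean of siDNp63 replicates 2 and 3, and the same difference was −0.13 for TEAD3.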

How the data were processed

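Poly(A) RNA of SCC90 cells was measured in 3 siCTRL and 3 siDNp63 libraries, grouped by sample title. The submitters' processing notes name kallisto 0.46.2, bcl2fastq 2.17.1.14 and hg38. The sources used here name no annotation release. Expected counts, estimated by kallisto, were deposited per Ensembl gene without scaling between libraries. TPM values, deposited by the authors beside them, correct for transcript length and add up to 1000000 in a library. All 12 columns were used. Symbols were matched for 30084 of 40488 genes, and coordinates are those of GENCODE 44 (GRCh38). Expected counts were rounded, filtered with filterByExpr (minimum count 10) and fitted on all 6 libraries with edgeR 4.0.16 (TMM, glmQLFit, glmQLFTest, group as the only term), after a check on simulated counts with known changes. Standard errors are the log2 fold change over the root of F. Confidence intervals are not adjusted for the number of genes. DESeq2 1.42.0, limma 3.58.1, other scalings, filters and library subsets were alternatives. Words of 31 bases were compared over GENCODE 44 transcripts and promoters taken from RefSeq (GRCh38.p14). The transcripts that kallisto was run on may differ, so the percentages of shared words may not hold for the deposited counts.

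The members and lists were chosen with earlier results of these data known. The genes named are the members, TP63, up to 5 genes with the smallest p per list and the 3 genes most like YAP1 and CCN2. A gene that this rule names is not reported here. LATS1, NF2, WWC2, WWC3, AMOTL1, FAT4, SAV1, YWHAE, SFN, NT5E, VGLL1, VGLL2, VGLL3, ANKRD1, CD37 and the marker genes were named after their values were seen. With 35716277 to 52598831 counts per library, members had at least 421 counts in each. The study's methods name a stranded library kit and kallisto with default options, so that strand was not used in the matching as far as they state. Reads of overlapping antisense genes may therefore not be separated.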

Additional observations from a re-analysis of the deposited data

How the results depend on the processing

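The fit was repeated under 15 alternatives. The calls of AMOTL2 (log2 fold change 0.65 to 0.76), LATS2 (0.36 to 0.51) and CCN2 (0.25 to 0.38) held in all 15. With library size alone, which took the all-gene median from −0.02 to −0.11 (log2) and the share of calls that were higher from 54.7% to 36.1%, 3 members rose and 2 fell, TEAD2 was at 0.038 (edgeR adjusted p = 0.439), TEAD4 passed at −0.24, and 3 cofactor genes were called. With limma on log2(TPM + 1), 41.5% of calls were higher, TEAD2 was at 0.11 and 1 core kinase gene was called. With the transcript length offset, 3 members (3 higher, 0 lower) and 2 core kinase genes were called, against 24.0% of all genes, TEAD2 was at 0.17 and WWTR1 at −0.14. Without the count filter TEAD2 was at 0.13 (edgeR adjusted p = 0.0512). Leaving out 1 library gave 0.10 to 0.14 for TEAD2, which passed only without siDNp63 replicate 1, and 0.11 to 0.21 for CCN1, which passed only without siDNp63 replicate 3. The TEAD4 share changed by −0.706 percentage points as a share of counts, against −1.53 of TPM, and the TEAD2 share by 1.05 against 2.39. With an absolute log2 fold change over 1, 0 members were called, at an adjusted p under 0.05 or at an unadjusted p under 0.005.

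The replicate numbers are shared between the groups, but same-numbered libraries did not deviate together (correlations of −0.0117, 0.0174 and 0.0267 over genes). With the replicate number as a block, TEAD2 had an edgeR adjusted p = 0.0782 (log2 fold change 0.12), so that 4 members were called, and 4952 genes in all against 5803. The causes of these shifts were not tested.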
